A study of Mus musculus with 8 samples.

Results

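The NF-kB system of bone marrow macrophages was followed through 33 genes: 5 subunits of the transcription factor, 10 inhibitors and nuclear IkB proteins, 9 kinases and signalling adaptors, and 9 target genes. The genes were chosen by symbol from knowledge of the pathway, with earlier results of these data known. Shares of all tested genes set beside their counts below therefore describe the list and do not test it. All 33 were found among the 47643 gene identifiers of the macrophage count table and among the 52458 entries of the plasma cell table, and all 33 were among the 15522 genes tested. The mice were wild type and of strain B6, and no treatment was given. Tumour-bearing mice had received GFP-positive Vk*MYC myeloma cells, enriched by CD138, in the tibia. Vk*MYC is a mouse plasma cell tumour driven by a MYC transgene under immunoglobulin kappa elements. Tumour-associated macrophages (TAM) of the marrow were sorted for high F4/80 and low CD11b. GFP-positive TAM were taken as in contact with myeloma (TAM-IC, n = 2) and GFP-negative TAM as not in contact (TAM-NIC, n = 2), and marrow macrophages of naive mice served as controls (n = 2). Contact was defined by the GFP signal of the sorted cell. Plasma cell samples (n = 2) came from sorts of Vk*MYC myeloma and of polyclonal plasma cells, but their labels do not say which is which. The 3 comparisons ask what set GFP-positive TAM apart from GFP-negative TAM, and how each TAM group differed from macrophages of mice without tumour.

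NF-kB factors are dimers of Rel family subunits that are held in the cytoplasm by IkB proteins. Signals from cytokine receptors, Toll-like receptors and tumour necrosis factor receptors activate IkB kinase, which marks the IkB proteins for destruction and frees the dimers to enter the nucleus (the canonical route). In the noncanonical route, stabilised Map3k14 acts through Chuk on the Nfkb2 precursor and releases dimers that contain Relb. Many inhibitors are themselves transcribed in response to NF-kB, so that the response limits itself, and in macrophages the pathway controls inflammatory cytokines, costimulatory receptors and survival genes.

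Library totals were 44491870 and 42134293 counts in TAM-IC, 41357964 and 31047348 in TAM-NIC, and 46873056 and 28887725 in naive macrophages, each pair given as replicate 1 and replicate 2 here and below. A count of 0 in these libraries allows up to 3 counts, or 0.064 to 0.104 CPM (the count scaled to a library total of 1000000). Of 11 macrophage markers all were detected in every library. Their summed level was 6510 and 6413 CPM in TAM-IC, 24227 and 13919 CPM in TAM-NIC, and 23264 and 11710 CPM in naive macrophages. Of these sums Vcam1 alone had 259.7 and 153, 5063 and 5805, and 8636 and 4335 CPM. Csf1r went the other way, with 2396 and 4368 CPM in TAM-IC and 1889 and 1120 CPM in naive macrophages. Cd68 and Fcgr1 overlapped between these groups, and the other markers were lower in TAM-IC. Markers of other marrow cells were also present. The summed level of 8 neutrophil markers was 27628 to 49712 CPM in TAM-IC, 9080 to 17319 CPM in TAM-NIC and 46871 to 73051 CPM in naive macrophages, and none of the 8 was at 0 in any library. The 10 dendritic cell markers summed to 199 to 406 CPM in TAM-IC, 130 to 438 CPM in TAM-NIC and 77.1 to 95.2 CPM in naive macrophages, and those of 6 monocyte genes to 2177 to 2633, 918 to 1081 and 1009 to 1713 CPM in the same order of groups, again with no marker at 0. Replicate 2 of TAM-NIC stood apart, with 9.13% of its counts on immunoglobulin genes, against 0.166% to 0.632% in the other 5 macrophage libraries. Its 10 plasma cell markers summed to 29332 CPM, against 842 to 2709 CPM. Of this sum 23693 CPM was Igkc, itself an immunoglobulin gene. Mzb1, at 10.98 CPM, was below replicate 1 of TAM-NIC (21.6 CPM) and naive macrophages (14.0 and 14.7 CPM). The other markers were highest in replicate 2 of TAM-NIC among the macrophage libraries. For many, but not all, calls named below that changed without replicate 2 of TAM-NIC, the value without it is given as well. For many, but not all, counts of the 33 genes the same is done. The replicate numbers of TAM are the mouse numbers of the labels, but the Y-linked gene Ddx3y had 88.4 CPM in replicate 2 of TAM-IC and 0.258 CPM in replicate 2 of TAM-NIC, so these libraries do not come from a single animal. In the other 4 macrophage libraries Ddx3y had at most 0.235 CPM. In bulk RNA, fewer cells of a type and less RNA per cell cannot be told apart, and the part of these cell mixtures in the differences below was not tested.

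Promoter sequences show where the DNA motif bound by NF-kB stands in genes of the pathway. RefSeq windows (GRCm38.p6, 250 bases before to 50 after an annotated start) were available for 25 of the 33 genes. The kappa B consensus, a motif of 10 bases searched on both strands, matched in 13 of these 25 genes (52.0%), against 1388 of all 27025 genes in the table (5.14%). By role, it matched in 8 of 9 inhibitors and nuclear IkB proteins, 2 of 3 subunits, 3 of 7 targets and 0 of 6 kinases and adaptors. The 150 bases before the start follow for 6 genes, chosen as 2 subunits, 3 inhibitors and 1 target, with each run of matching bases in capitals and overlapping matches merged into a single run. The sequences run 5′ to 3′ on the strand of the gene and end just before the start.
Rel (chr11:23770970-23771119, minus strand): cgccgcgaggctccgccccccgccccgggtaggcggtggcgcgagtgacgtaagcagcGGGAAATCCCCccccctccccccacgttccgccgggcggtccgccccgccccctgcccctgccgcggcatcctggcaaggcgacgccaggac
Nfkb2 (chr19:46304587-46304736, plus strand): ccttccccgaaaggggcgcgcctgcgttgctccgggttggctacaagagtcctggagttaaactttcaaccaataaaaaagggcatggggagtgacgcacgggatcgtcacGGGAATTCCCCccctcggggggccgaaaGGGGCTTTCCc
Nfkbia (chr12:55492648-55492797, minus strand): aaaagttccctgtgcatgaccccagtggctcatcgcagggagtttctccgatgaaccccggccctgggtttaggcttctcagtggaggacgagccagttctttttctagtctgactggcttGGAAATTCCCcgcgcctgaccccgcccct
Tnfaip3 (chr10:19015411-19015560, minus strand): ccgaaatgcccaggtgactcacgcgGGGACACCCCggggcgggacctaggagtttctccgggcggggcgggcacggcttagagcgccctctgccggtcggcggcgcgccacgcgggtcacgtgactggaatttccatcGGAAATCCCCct
Tnip1 (chr11:54962941-54963090, minus strand): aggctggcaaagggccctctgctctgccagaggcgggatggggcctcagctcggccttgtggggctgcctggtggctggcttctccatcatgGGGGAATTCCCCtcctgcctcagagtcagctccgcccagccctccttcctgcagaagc
Ier3 (chr17:35821563-35821712, plus strand): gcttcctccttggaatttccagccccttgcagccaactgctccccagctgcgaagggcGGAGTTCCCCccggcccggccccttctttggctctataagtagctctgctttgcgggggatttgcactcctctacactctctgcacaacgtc
The first base of the run lay 92 bases before the start in Rel, 39 and 11 bases in Nfkb2, 29 bases in Nfkbia, 125 and 12 bases in Tnfaip3, 58 bases in Tnip1 and 92 bases in Ier3. A match describes the letters of the window and does not show binding. The members with a match had median log2 fold changes of -0.29 for TAM-IC over TAM-NIC, 1.06 for TAM-IC over naive and 1.65 for TAM-NIC over naive. The 12 members without a match in the table had -0.07, 0.71 and 0.88. These medians were 0.30, 1.03 and 1.04 with a match and -0.05, 0.68 and 0.64 with none when replicate 2 of TAM-NIC was left out.

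Across the 33 genes, transcript levels were higher in TAM than in naive macrophages in nearly every role, while the TAM groups overlapped for most genes. In TAM-IC, both libraries stood above both naive libraries for 28 of 33 genes and below both for 0, against 23% and 36.7% of all tested genes. The 5 genes that overlapped were Nfkbid, Tnfaip2, Ikbke, Ikbkg and Cflar. In TAM-NIC the counts were 22 above and 1 below, against 16.6% and 28.9% of all tested genes. The median log2 fold change of the 33 genes was 1.04 for TAM-IC over naive and 1.28 for TAM-NIC over naive, where all tested genes had medians of 0.0040 and 0.06. Positive values were found for 31 and 32 of 33 genes in these comparisons, against 50.2% and 53.7% of all tested genes. Both comparisons share the naive libraries. Without replicate 2 of TAM-NIC, the value for TAM-NIC over naive turned negative for Nfkbid (-0.26), Birc2 (-0.20) and Ikbkb (-0.0076). It turned positive for Ikbkg (0.15). With replicate 2 of TAM-NIC left out, replicate 1 alone stood above both naive libraries for 24 genes and below both for 6, against 33.7% and 48.3% of all tested genes, and the median was 1.04. With replicate 2 of TAM-IC left out, replicate 1 alone stood above both naive libraries for 31 genes and below both for 0, against 31.8% and 44.5% of all tested genes.

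**Figure D1:**
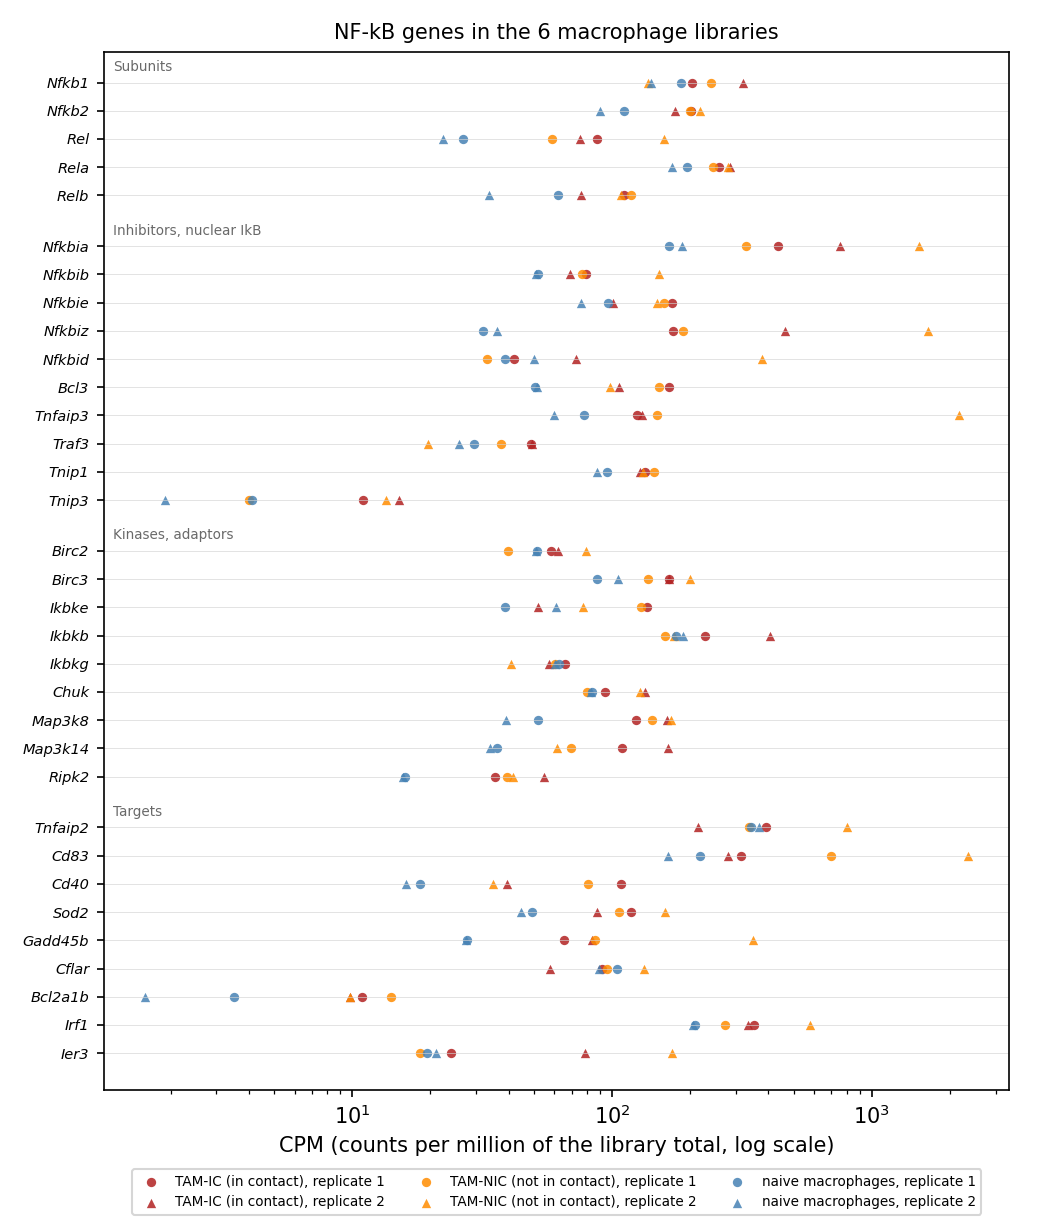
Level of each of the 33 genes in the 6 macrophage libraries, in CPM on a log axis, with circles for replicate 1 and triangles for replicate 2 of each group. Naive libraries lie to the left for most genes, and replicate 2 of TAM-NIC lies far to the right for Tnfaip3, Nfkbiz, Nfkbia, Nfkbid, Cd83 and Gadd45b.

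No single gene of the 33 passed edgeR's quasi-likelihood test at an adjusted p of 0.05 in any comparison. For TAM-IC over naive, edgeR called 0 of the 33, where it called 0.0322% of all tested genes higher and 0.187% lower, and 20 of the 33 had an unadjusted p under 0.05 with a higher level and 0 with a lower level, against 7.11% and 7.51%. DESeq2 called 12 of the 33 higher and 0 lower, against 3.07% and 4.85%. For TAM-NIC over naive, edgeR called 0 of the 33, and 0% of all tested genes in each direction, with 21 members higher and 0 lower at an unadjusted p under 0.05, against 7.78% and 7.39%. DESeq2 called 18 higher and 0 lower, against 4.43% and 3.75%. Limma-voom called 0 in both comparisons. The edgeR counts moved with the libraries left out, as did those of all tested genes. In these fits TAM-NIC has 1 library, which is assumed to vary like those of the other groups. Without replicate 1 of TAM-NIC, edgeR called 6 members higher and 0 lower for TAM-IC over naive, against 0.974% and 2.16% of all tested genes, and 11 higher and 0 lower for TAM-NIC over naive, against 2.39% and 0.405%. Without its replicate 2 edgeR called 5 higher and 0 lower for TAM-IC over naive, against 0.935% and 1.99%, and 1 higher and 0 lower for TAM-NIC over naive, against 0.486% and 1.18%. DESeq2 without replicate 2 of TAM-NIC called 17 members higher and 0 lower for TAM-IC over naive, against 6.08% and 7.88%, and 13 higher and 0 lower for TAM-NIC over naive, against 4.49% and 8.59%. The calls it lost for TAM-NIC over naive were those of Nfkbia, Nfkbib, Tnip1, Birc3 and Map3k14.

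The subunit genes stood higher in TAM than in naive macrophages, most of all Rel. All 5 cleared both naive libraries in TAM-IC and 4 of 5, all but Nfkb1, in TAM-NIC. With replicate 2 of TAM-NIC left out, Nfkb1 cleared them too, at 241 CPM in replicate 1 against 185 and 141 CPM in naive macrophages. Rel encodes c-Rel, a subunit of activated immune cells (ENSMUSG00000020275.9, GRCm38 chromosome 11, 23736847 to 23770970, minus strand). It stood at 87.5 and 75.4 CPM in TAM-IC, 58.8 and 158 CPM in TAM-NIC, and 26.7 and 22.4 CPM in naive macrophages. All 4 TAM libraries lay above both naive libraries, while the TAM groups overlapped. Rel had a log2 fold change of 1.89 ± 0.46 (SE, n = 2 per group) for TAM-IC over naive and 2.27 ± 0.47 for TAM-NIC over naive, with adjusted p = 0.188 and 0.219 in edgeR and 0.00769 and 0.000702 in DESeq2. Between the TAM groups it was -0.38 ± 0.45 (edgeR adjusted p = 0.703). Without replicate 2 of TAM-NIC these values were 1.43 for TAM-NIC over naive and 0.43 between the TAM groups.

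Nfkb2, the precursor that the noncanonical route processes (ENSMUSG00000025225.14, chromosome 19, 46304320 to 46312385, plus strand), had 202 and 175 CPM in TAM-IC, 199.7 and 218 CPM in TAM-NIC, and 112 and 90.3 CPM in naive macrophages. Its replicates lay close together, and each TAM library exceeded each naive library. Nfkb2 had a log2 fold change of 1.06 ± 0.25 for TAM-IC over naive and 1.19 ± 0.25 for TAM-NIC over naive (adjusted p = 0.181 and 0.219 in edgeR, 0.00306 and 0.000514 in DESeq2), with -0.13 ± 0.25 between the TAM groups (edgeR adjusted p = 0.825). Its partner gene Relb (ENSMUSG00000002983.17, chromosome 7, 19606217 to 19629438, minus strand) had 111 and 76.2 CPM in TAM-IC, 119 and 108 CPM in TAM-NIC, and 61.8 and 33.5 CPM in naive macrophages. Both TAM groups again cleared the naive libraries, with fold changes of 1.12 ± 0.36 and 1.39 ± 0.36 on the log2 scale over naive (adjusted p = 0.273 and 0.229 in edgeR, 0.0999 and 0.0225 in DESeq2) and -0.27 ± 0.36 between the TAM groups (edgeR adjusted p = 0.742).

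Rela, the main transactivating subunit (ENSMUSG00000024927.7, chromosome 19, 5637483 to 5648130, plus strand), varied least, with 259 and 284 CPM in TAM-IC, 244 and 279 CPM in TAM-NIC, and 195 and 171 CPM in naive macrophages. The naive libraries were the lowest, and the log2 fold change over naive was 0.73 ± 0.26 in TAM-IC and 0.65 ± 0.26 in TAM-NIC (edgeR adjusted p = 0.303 and 0.314), with 0.07 ± 0.26 between the TAM groups (edgeR adjusted p = 0.915), a value that was -0.023 without replicate 2 of TAM-IC. Nfkb1, whose product is processed to a DNA-binding subunit without a transactivation domain (ENSMUSG00000028163.17, chromosome 3, 135584655 to 135691547, minus strand), had 203 and 321 CPM in TAM-IC, 241 and 138 CPM in TAM-NIC, and 185 and 141 CPM in naive macrophages. Here replicate 2 of TAM-NIC lay below both naive libraries in CPM, so that only TAM-IC cleared them. With TMM-scaled library sizes replicate 2 of TAM-NIC lay between the naive libraries, at 138.7 CPM against 172.9 and 131.3 CPM. Fitted values were 0.85 ± 0.42 on the log2 scale for TAM-IC over naive, 0.37 ± 0.42 for TAM-NIC over naive and 0.48 ± 0.42 between the TAM groups (edgeR adjusted p = 0.400, 0.740 and 0.591). The value for TAM-NIC over naive was -0.17 without replicate 1 of that group.

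Scaled to exon length, the subunit genes stood at different levels. Rela was the highest, with a mean of 88.2 CPM per kb of exons in TAM-IC, 85.1 in TAM-NIC and 59.5 in naive macrophages. Rel had the lowest means, with 10.9, 14.5 and 3.29 CPM per kb, although its libraries overlapped those of Nfkb1 in TAM-NIC. Nfkb2 followed Rela with 41.1, 45.6 and 22.0 CPM per kb. Relb and Nfkb1 were neighbours whose libraries overlapped in TAM-IC and in naive macrophages, with means of 24.1, 29.2 and 12.3 CPM per kb for Relb and 21.7, 15.7 and 13.5 CPM per kb for Nfkb1.

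**Figure D2:**
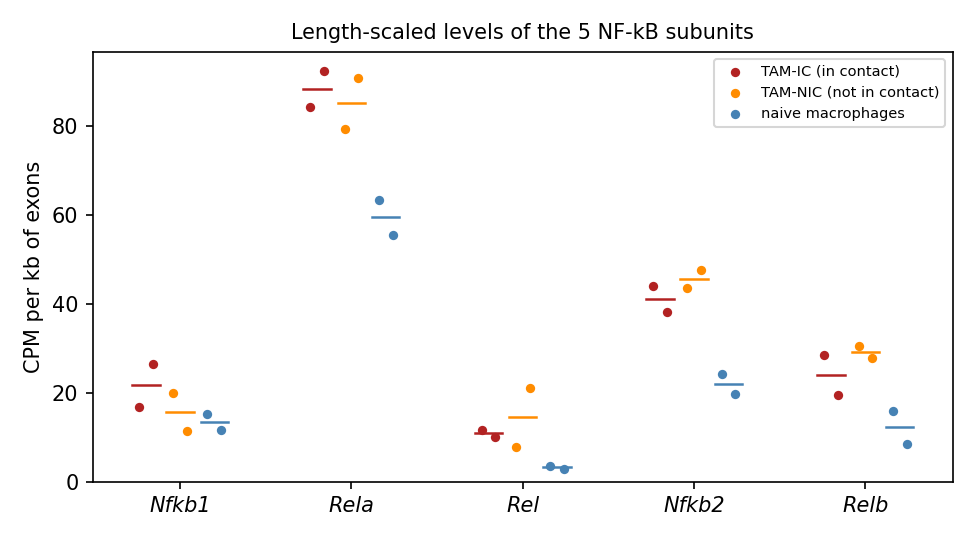
Length-scaled level (CPM per kb of exons) of the 5 subunit genes in each macrophage library, where points are libraries (n = 2 per group) and short lines group means. Rela is the highest in every group, and Rel, Nfkb2, Rela and Relb have both TAM pairs above both naive libraries.

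The inhibitors and nuclear IkB proteins had positive log2 fold changes over naive for 10 of 10 genes in both TAM groups. Medians were 1.01 in TAM-IC and 1.54 in TAM-NIC. Without replicate 2 of TAM-NIC the median of that group was 0.94, and its value for Nfkbid turned negative (-0.26). Nfkbia, the IkB alpha inhibitor that NF-kB itself induces (ENSMUSG00000021025.7, chromosome 12, 55489410 to 55492647, minus strand; the promoter with a match 29 bases before the start), stood at 435 and 757 CPM in TAM-IC, 329 and 1523 CPM in TAM-NIC, and 166 and 186 CPM in naive macrophages. All 4 TAM libraries were above the naive ones. By length-scaled level Nfkbia was the first of the 33 genes in TAM-IC and in naive macrophages, with means of 370 and 109 CPM per kb, and the second in TAM-NIC, with 575 CPM per kb. Among the other cytoplasmic inhibitors, Nfkbib had 79.4 and 69.1 CPM in TAM-IC, 76.4 and 152 CPM in TAM-NIC, and 51.8 and 50.96 CPM in naive macrophages. Nfkbie had 169.6 and 101 CPM in TAM-IC, 158 and 149 CPM in TAM-NIC, and 96.3 and 75.9 CPM in naive macrophages. Both genes had every TAM library above every naive library. DESeq2 called Nfkbia (log2 fold change 2.51, adjusted p = 0.00829) and Nfkbib (1.26, adjusted p = 0.0300) higher in TAM-NIC than in naive macrophages. Neither was called without replicate 2 of TAM-NIC, with DESeq2 log2 fold changes of 1.04 (adjusted p = 0.107) and 0.71 (adjusted p = 0.121).

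Nuclear IkB proteins bind NF-kB dimers on DNA and modify their output. Nfkbiz, which is needed in macrophages for a set of late inflammatory genes (ENSMUSG00000035356.16, chromosome 16, 55811375 to 55838899, minus strand), had 171 and 465 CPM in TAM-IC, 188 and 1647 CPM in TAM-NIC, and 31.8 and 36.2 CPM in naive macrophages. The lowest TAM library was thus several-fold above the highest naive library. Its log2 fold change was 4.87 ± 1.13 for TAM-NIC over naive (adjusted p = 0.219 in edgeR, 1.33e-05 in DESeq2) and 2.64 without replicate 2 of that group. DESeq2 also called it in TAM-IC over naive (log2 fold change 3.36, adjusted p = 0.00462).

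Bcl3, a nuclear cofactor of homodimers (ENSMUSG00000053175.17, chromosome 7, 19808462 to 19822770, minus strand), had 165 and 106 CPM in TAM-IC, 151 and 98.0 CPM in TAM-NIC, and 50.6 and 51.6 CPM in naive macrophages. Both TAM groups cleared the naive libraries and overlapped each other. Over naive, the Bcl3 log2 fold change was 1.56 ± 0.34 in TAM-IC and 1.43 ± 0.34 in TAM-NIC (adjusted p = 0.158 and 0.222 in edgeR, 0.00213 and 0.00621 in DESeq2). Nfkbid had 41.8 and 73.0 CPM in TAM-IC, 32.9 and 379.5 CPM in TAM-NIC, and 38.9 and 50.1 CPM in naive macrophages. Apart from replicate 2 of TAM-NIC, its libraries intermingled. Between the TAM groups its log2 fold change was -1.79 ± 1.00 (edgeR adjusted p = 0.410) and 0.77 without that library.

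Tnfaip3 encodes a ubiquitin-editing enzyme that shuts down signalling to NF-kB (ENSMUSG00000019850.11, chromosome 10, 19000910 to 19015657, minus strand; 2 matches in the promoter shown). It had 125 and 131 CPM in TAM-IC, 149 and 2167 CPM in TAM-NIC, and 78.0 and 60.1 CPM in naive macrophages. Replicate 2 of TAM-NIC was 14.6-fold above replicate 1, and the other TAM libraries lay within a narrow range above the naive ones. Between the TAM groups the log2 fold change was -3.14 ± 1.11 (adjusted p = 0.243 in edgeR, 0.0129 in DESeq2). Without that library it was -0.26 in edgeR and -0.24 in DESeq2 (DESeq2 adjusted p = 0.820). For TAM-NIC over naive, DESeq2 called it with a log2 fold change of 4.17 (adjusted p = 0.000601), and of 1.24 without that library (DESeq2 adjusted p = 0.00670).

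The partners of Tnfaip3 were less spread. Tnip1, which brings Tnfaip3 to its substrates, had 134 and 128 CPM in TAM-IC, 145 and 131 CPM in TAM-NIC, and 95.5 and 87.8 CPM in naive macrophages, with a DESeq2 call for TAM-NIC over naive (log2 fold change 0.71, adjusted p = 0.0318) that was lost without replicate 2 of TAM-NIC (0.80, DESeq2 adjusted p = 0.0623). Tnip3, a related protein, was the lowest of the 33 genes by length-scaled level, with 10.99 and 15.1 CPM in TAM-IC, 3.99 and 13.5 CPM in TAM-NIC, and 4.12 and 1.90 CPM in naive macrophages. DESeq2 called it in TAM-IC over naive (log2 fold change 2.22, adjusted p = 0.0328). Traf3, the adaptor that targets Map3k14 for degradation, had 48.9 and 49.2 CPM in TAM-IC, 37.4 and 19.6 CPM in TAM-NIC, and 29.4 and 25.9 CPM in naive macrophages. TAM-IC cleared both other groups, with a log2 fold change of 0.79 ± 0.36 over TAM-NIC (adjusted p = 0.325 in edgeR, 0.276 in DESeq2), or 0.35 without replicate 2 of TAM-NIC.

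Of the 9 kinases and adaptors, Map3k14, Map3k8 and Ripk2 had the highest fitted log2 fold changes for TAM-IC over naive, and Map3k8, Ripk2 and Ikbke for TAM-NIC over naive. Map3k14 encodes NF-kB-inducing kinase, which starts the noncanonical route (ENSMUSG00000020941.7, chromosome 11, 103219762 to 103267472, minus strand). It had 109 and 165 CPM in TAM-IC, 69.3 and 61.3 CPM in TAM-NIC, and 36.0 and 34.0 CPM in naive macrophages. The 3 groups did not overlap, with TAM-IC highest and naive macrophages lowest. Its log2 fold change was 2.13 ± 0.30 for TAM-IC over naive (adjusted p = 0.0764 in edgeR, 2.37e-07 in DESeq2) and 1.09 ± 0.29 for TAM-IC over TAM-NIC (adjusted p = 0.199 in edgeR, 0.0270 in DESeq2). With each of the 6 libraries left out in turn, the value between the TAM groups ranged between 0.72 and 1.40. For TAM-NIC over naive DESeq2 gave 1.02 (adjusted p = 0.0446). Without replicate 2 of TAM-NIC, DESeq2 gave 0.97 between the TAM groups (adjusted p = 0.135) and 1.12 for TAM-NIC over naive (adjusted p = 0.0505), so that both calls were lost.

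Map3k8, a kinase held by the Nfkb1 precursor that passes Toll-like receptor signals to the ERK pathway (ENSMUSG00000024235.10), had 124 and 163 CPM in TAM-IC, 143 and 169 CPM in TAM-NIC, and 51.8 and 39.1 CPM in naive macrophages. Its TAM libraries overlapped and lay above both naive libraries. Over naive, the Map3k8 log2 fold change was 1.82 ± 0.29 in TAM-IC and 1.91 ± 0.29 in TAM-NIC (adjusted p = 0.0927 and 0.219 in edgeR, 1.01e-05 and 4e-06 in DESeq2). Ripk2, the kinase of the NOD receptors (ENSMUSG00000041135.15, chromosome 4, 16122733 to 16163647, minus strand), had 35.4 and 54.6 CPM in TAM-IC, 39.4 and 41.4 CPM in TAM-NIC, and 15.9 and 15.8 CPM in naive macrophages. The naive pair was again below every TAM library. Its log2 fold change over naive was 1.67 ± 0.30 and 1.49 ± 0.30 for TAM-IC and TAM-NIC (adjusted p = 0.113 and 0.219 in edgeR, 0.000241 and 0.00165 in DESeq2).

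Within the IkB kinase complex, only the catalytic subunit gene Ikbkb separated TAM-IC from both other groups. Ikbkb (ENSMUSG00000031537.15, chromosome 8, 22659212 to 22706589, minus strand) had 228 and 406 CPM in TAM-IC, 161 and 174 CPM in TAM-NIC, and 176 and 188 CPM in naive macrophages. In CPM, TAM-IC stood above naive macrophages and TAM-NIC below them. With TMM-scaled library sizes TAM-NIC and naive macrophages overlapped, at 169 and 175 CPM in TAM-NIC and 165 and 175 CPM in naive macrophages, and the edgeR log2 fold change of TAM-NIC over naive was 0.02. For TAM-IC over naive it was 0.97 (edgeR adjusted p = 0.312). The log2 fold change between the TAM groups was 0.95 ± 0.35 (adjusted p = 0.261 in edgeR, 0.112 in DESeq2), and 0.44 without replicate 2 of TAM-IC. The second catalytic subunit gene Chuk had 93.9 and 135 CPM in TAM-IC, 80.3 and 129 CPM in TAM-NIC, and 83.5 and 83.4 CPM in naive macrophages. The regulatory subunit gene Ikbkg had 66.0 and 57.2 CPM in TAM-IC, 60.6 and 40.8 CPM in TAM-NIC, and 62.3 and 60.4 CPM in naive macrophages, with all groups overlapping and replicate 2 of TAM-NIC the lowest library.

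Ikbke, an IkB kinase-related kinase of the interferon response, had 136 and 52.0 CPM in TAM-IC, 129 and 77.1 CPM in TAM-NIC, and 38.7 and 60.7 CPM in naive macrophages. Its replicates differed by more than 2-fold in TAM-IC. Birc3, a ubiquitin ligase of receptor complexes that is also an NF-kB target (ENSMUSG00000032000.17, chromosome 9, 7848699 to 7873186, minus strand), had 165 and 166 CPM in TAM-IC, 138 and 200.5 CPM in TAM-NIC, and 87.2 and 106 CPM in naive macrophages. Each TAM library was above each naive library, and the log2 fold change of TAM-IC over naive was 0.94 ± 0.28 (adjusted p = 0.239 in edgeR, 0.0461 in DESeq2). Its relative Birc2 had 58.2 and 61.9 CPM in TAM-IC, 39.7 and 79.6 CPM in TAM-NIC, and 51.4 and 50.8 CPM in naive macrophages.

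Of the 9 targets, 7 had both libraries of TAM-IC above both naive libraries and 6 had both libraries of TAM-NIC above them, against 23% and 16.6% of all tested genes, with median log2 fold changes over naive of 1.29 and 1.90, the second being 1.35 without replicate 2 of TAM-NIC. For 7 of the 9, replicate 2 of TAM-NIC was the highest of the 6 libraries. Sod2, the mitochondrial superoxide dismutase (ENSMUSG00000006818.4, chromosome 17, 13006846 to 13040063, plus strand), had 118 and 87.7 CPM in TAM-IC, 106 and 160.5 CPM in TAM-NIC, and 49.0 and 44.6 CPM in naive macrophages. Its TAM libraries were all above the naive pair, with log2 fold changes over naive of 1.29 ± 0.29 in TAM-IC and 1.64 ± 0.29 in TAM-NIC (adjusted p = 0.169 and 0.219 in edgeR, 0.00603 and 0.000159 in DESeq2). Cd40, a costimulatory receptor that signals through Traf3 and the noncanonical route (ENSMUSG00000017652.16, chromosome 2, 165055627 to 165072948, plus strand), had 108 and 39.3 CPM in TAM-IC, 80.7 and 34.7 CPM in TAM-NIC, and 18.2 and 16.1 CPM in naive macrophages. In both TAM groups replicate 1 was more than 2-fold above replicate 2. So were the summed dendritic cell markers (406 and 199 CPM in TAM-IC, 438 and 130 CPM in TAM-NIC). Of these sums Itgax alone had 243 and 112 CPM in TAM-IC and 351 and 58.3 CPM in TAM-NIC. In TAM-NIC, Flt3, Zbtb46, Ccr7, Fscn1 and Siglech went the other way, higher in replicate 2. The part of dendritic cells in the Cd40 result was not tested. The log2 fold change of TAM-IC over naive was 2.24 ± 0.60 (adjusted p = 0.217 in edgeR, 0.00821 in DESeq2).

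Bcl2a1b, a survival protein of the Bcl2 family (ENSMUSG00000089929.1, chromosome 9, 89199209 to 89207827, plus strand), had 10.9 and 9.83 CPM in TAM-IC, 14.1 and 9.82 CPM in TAM-NIC, and 3.52 and 1.59 CPM in naive macrophages. It has near-identical copies between which counting could split reads, so its level is uncertain. Its log2 fold change over naive was 2.17 ± 0.51 in TAM-IC and 2.37 ± 0.52 in TAM-NIC (adjusted p = 0.180 and 0.219 in edgeR, 0.00262 and 0.000893 in DESeq2). The transcription factor gene Irf1 had 352 and 335 CPM in TAM-IC, 273 and 581 CPM in TAM-NIC, and 208 and 206 CPM in naive macrophages, with every TAM library above the naive pair. Cflar, an inhibitor of death receptor caspases, and Tnfaip2 did not follow this order. Cflar had 91.2 and 57.6 CPM in TAM-IC, 95.6 and 132 CPM in TAM-NIC, and 105 and 89.0 CPM in naive macrophages. Tnfaip2 had 392 and 214 CPM in TAM-IC, 337 and 804 CPM in TAM-NIC, and 343 and 369 CPM in naive macrophages.

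Cd83, a surface protein of activated antigen-presenting cells (ENSMUSG00000015396.3, chromosome 13, 43784775 to 43803132, plus strand), had 315 and 280.5 CPM in TAM-IC, 698 and 2355 CPM in TAM-NIC, and 218 and 164 CPM in naive macrophages. Both libraries of TAM-NIC were above all others, so the order of the 3 groups did not rest on replicate 2 alone. The log2 fold change was -2.33 ± 0.60 between the TAM groups (adjusted p = 0.190 in edgeR, 0.00154 in DESeq2) and 3.12 ± 0.62 for TAM-NIC over naive (adjusted p = 0.219 in edgeR, 1.66e-05 in DESeq2). Without replicate 2 of TAM-NIC these values were -1.27 and 2.04. Across the pair of TAM-NIC, Cd83 was higher in replicate 2. The dendritic cell markers were mixed there. Itgax (351 and 58.3 CPM), Xcr1, Clec9a, Batf3 and Cd209a were lower in replicate 2. Ccr7 (8.63 and 15.2 CPM), Fscn1 (2.42 and 7.92 CPM), Flt3, Siglech and Zbtb46 were higher. The part of dendritic cells in the Cd83 level was not tested.

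Gadd45b, a stress-response regulator (ENSMUSG00000015312.8, chromosome 10, 80930073 to 80932204, plus strand), had 65.3 and 83.9 CPM in TAM-IC, 85.7 and 348 CPM in TAM-NIC, and 27.7 and 27.3 CPM in naive macrophages. All TAM libraries were above the close naive pair. The log2 fold change for TAM-NIC over naive was 3.10 ± 0.65 (adjusted p = 0.219 in edgeR, 0.000129 in DESeq2), and 1.81 without replicate 2 (edgeR adjusted p = 0.0479), in a fit where the lone TAM-NIC library is assumed to vary like those of the other groups. Ier3, an early response gene with the promoter match shown above, had 24.0 and 79.1 CPM in TAM-IC, 18.3 and 169.6 CPM in TAM-NIC, and 19.4 and 20.98 CPM in naive macrophages. Replicate 1 of TAM-NIC was below the naive pair and replicate 2 was 9.27-fold above replicate 1.

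Between the TAM groups the 33 genes had no common direction. The median log2 fold change of TAM-IC over TAM-NIC was -0.13 (-0.0020 over all tested genes), and 12 of 33 values were positive. By role the medians were -0.13 for subunits, -0.38 for inhibitors and nuclear IkB proteins, 0.16 for kinases and adaptors and -0.60 for targets, and without replicate 2 of TAM-NIC 0.09, 0.14, 0.23 and -0.19 in the same order. Libraries did not overlap for 7 genes. Ikbkb, Map3k14 and Traf3 were above, and Tnfaip3, Cd83, Gadd45b and Cflar below, which is 3 and 4 of 33 against 24.4% and 22.3% of all tested genes. With replicate 2 of TAM-NIC left out, 13 were above and 7 below, against 43.3% and 35.4% of all tested genes. EdgeR called 0 of the 33, as it did 0% of all tested genes in each direction, and at an unadjusted p under 0.05 there were 2 higher and 3 lower, against 7.09% and 10%. DESeq2 called 1 higher (Map3k14) and 2 lower (Cd83 and Tnfaip3), against 3.28% and 7.14%, and limma-voom called 0. Without replicate 1 of TAM-NIC, where replicate 2 alone stood for the group, edgeR called 1 member higher (Traf3) and 4 lower (Nfkbid, Tnfaip3, Gadd45b and Cd83), against 2.22% and 6.64% of all tested genes. Without replicate 2 edgeR called 0 members and 0% of all tested genes, and the median was -0.01. DESeq2 without replicate 2 called 0 higher and 1 lower (Cd83), against 4.63% and 3.82%. The fitted value changed sign with some library left out for 19 of the 33 genes between the TAM groups, against 2 for TAM-IC over naive and 6 for TAM-NIC over naive. Without replicate 2 of TAM-NIC it turned positive for Ier3 (1.47), Nfkbia (0.83), Nfkbid (0.77) and Nfkbiz (0.74). Among the genes with the smallest p, Gadd45b had -1.50 ± 0.61 (edgeR adjusted p = 0.291), Cflar -0.60 ± 0.30 (0.364), Tnfaip2 -0.89 ± 0.49 (0.409) and Nfkbib -0.59 ± 0.34 (0.420). The Gadd45b value was -0.23 and the Nfkbib value -0.08 without replicate 2 of TAM-NIC.

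**Figure D3:**
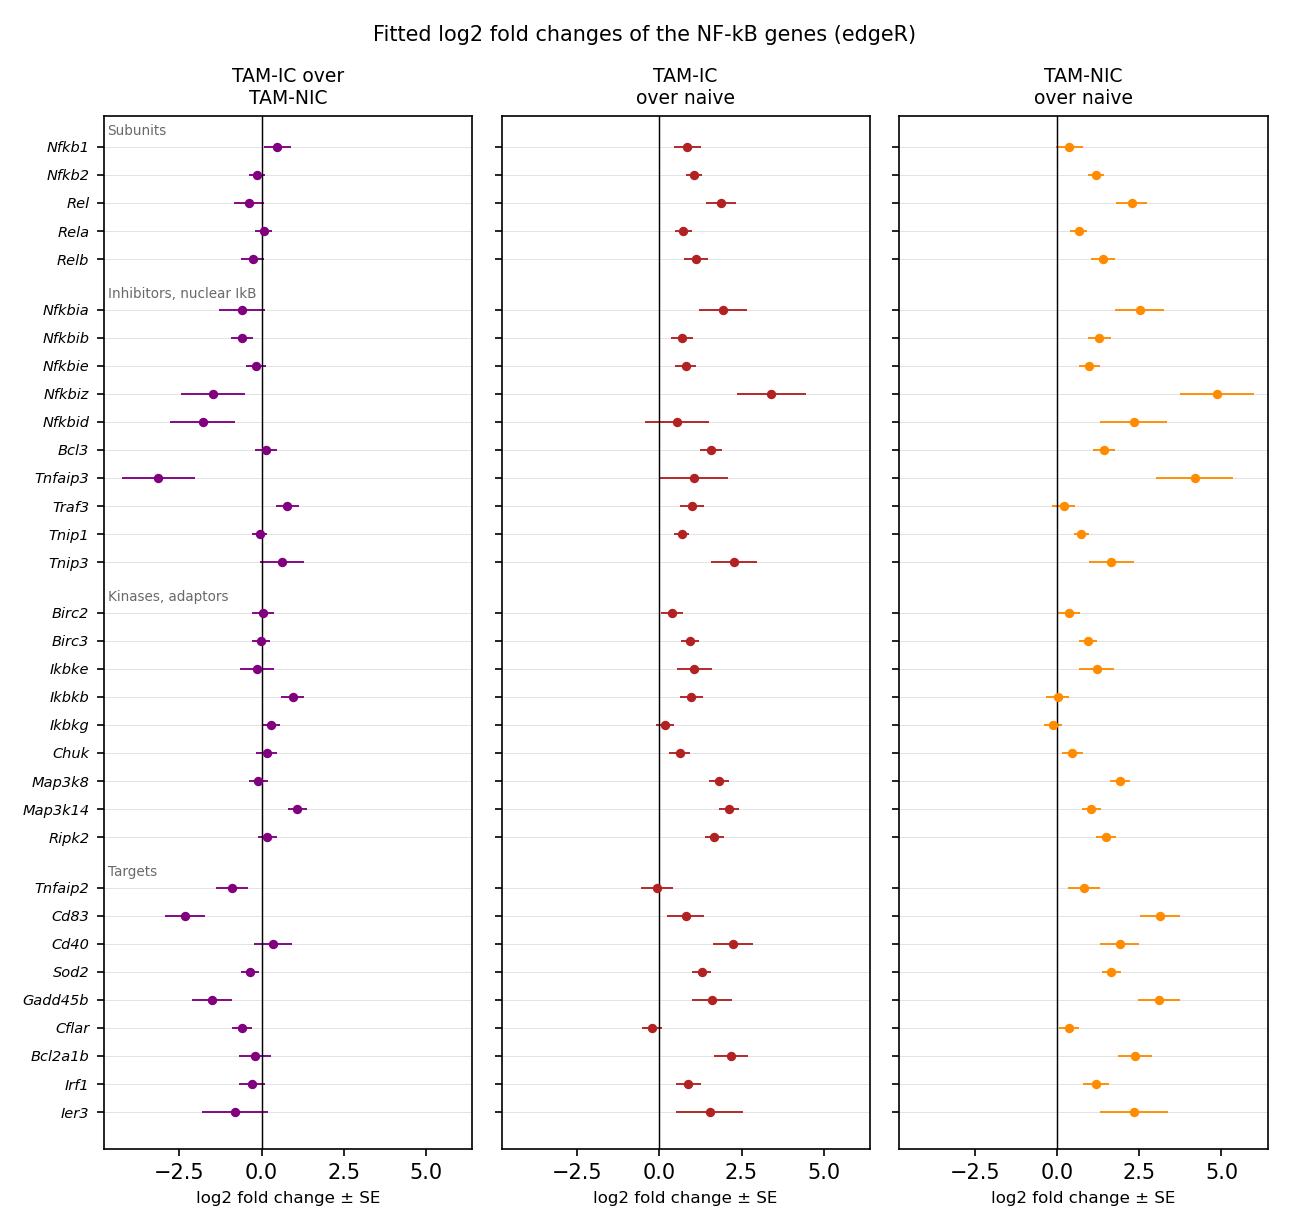
Fitted log2 fold change of each of the 33 genes in edgeR, with bars of 1 standard error (n = 2 libraries per group), for the 3 comparisons. Most values lie above 0 over naive in both TAM groups, and the widest bars belong to Tnfaip3, Nfkbiz, Nfkbid and Ier3.

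The spread within TAM-NIC was uneven over the roles. Replicate 2 exceeded replicate 1 at least 2-fold for 12 of 33 genes (36.4%, against 22.9% of all tested genes) and at least 4-fold for 6 (18.2%, against 11.3%). The 2-fold count was 5 of 10 inhibitors and nuclear IkB proteins, 5 of 9 targets, 1 of 9 kinases and adaptors and 1 of 5 subunits. The 6 genes past 4-fold were Tnfaip3 at 14.6-fold, Nfkbid at 11.5-fold, Ier3 at 9.27-fold, Nfkbiz at 8.76-fold, Nfkbia at 4.62-fold and Gadd45b at 4.06-fold. Among subunits only Rel passed 2-fold, at 2.69-fold. In TAM-IC 2 of 33 genes were at least 2-fold higher and 2 at least 2-fold lower in replicate 2, against 5.35% and 10.2% of all tested genes. In naive macrophages these counts were 0 and 2, against 5.01% and 7.56%. Replicate 2 of TAM-NIC was the highest of the 6 libraries for 17 of 33 genes (24.3% of all tested genes). A naive library was the highest for 0 of the 33, where replicates 1 and 2 were highest for 14.4% and 21.9% of all tested genes. This library is the one with the immunoglobulin counts, and the part of that in the spread was not tested.

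**Figure D4:**
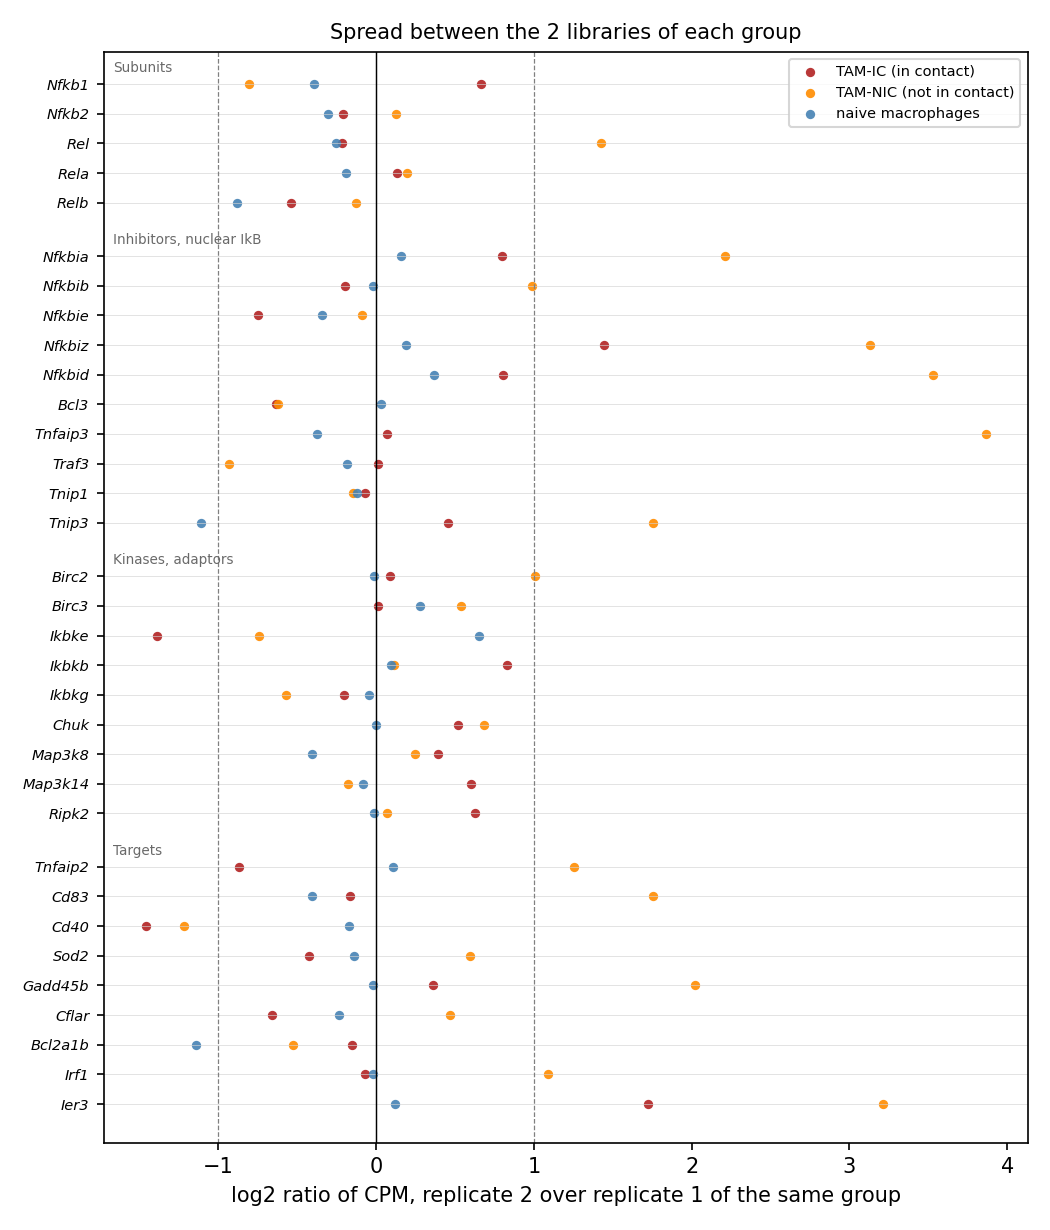
Log2 ratio of CPM in replicate 2 over replicate 1 of the same group for each of the 33 genes, with dashed lines at a 2-fold difference. In TAM-NIC the ratio is above 3 for Tnfaip3, Nfkbid, Ier3 and Nfkbiz, and in naive macrophages most ratios lie near 0.

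Plasma cell libraries were counted in a separate table, so their levels are set beside those of macrophages without a test. Immunoglobulin genes took 67.3% and 70.4% of the plasma cell counts, which lowers the CPM of every other gene there. In these CPM, both plasma cell libraries were below all 6 macrophage libraries for 30 of 33 genes. The exceptions were Relb (35.1 and 16.4 CPM), Nfkbia (307 and 192 CPM) and Gadd45b (25.8 and 39.1 CPM). Tnfaip3 had 32.4 and 8.03 CPM in plasma cells, Nfkbiz 5.26 and 3.89 CPM, Nfkbid 2.05 and 1.83 CPM and Cd83 21.4 and 9.36 CPM. On the same scale, replicate 2 of TAM-NIC was above both plasma cell libraries for 33 of 33 genes. Neither count was set beside a share of all genes, or repeated without the immunoglobulin counts of the plasma cells. Nfkb1 and Rel, at 10.6 and 8.48 CPM and at 2.05 and 0.91 CPM, were far below their macrophage levels, whereas Nfkb2 had 87.8 and 26.3 CPM and Rela 72.6 and 44.7 CPM.

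Genes around the 33 were described through 2 further lists. Upstream signalling, 43 receptors, adaptors and enzymes that feed the IkB kinase complex, had median log2 fold changes of 0.44 for TAM-IC over naive, 0.27 for TAM-NIC over naive and 0.22 between the TAM groups. Libraries of TAM-IC were above both naive libraries for 20 of 43 and below for 7, those of TAM-NIC for 12 and 6, and TAM-IC stood above TAM-NIC for 16 and below for 5. Among all tested genes the shares were 23% and 36.7%, 16.6% and 28.9%, and 24.4% and 22.3% in the same order. EdgeR called 1 gene of the list, and only for TAM-IC over naive. Traf1, which NF-kB induces and which binds receptors of the tumour necrosis factor family, rose there by 3.23 ± 0.35 on the log2 scale (edgeR adjusted p = 0.0493), with 88.0 and 49.6 CPM in TAM-IC, 64.4 and 78.0 CPM in TAM-NIC, and 8.94 and 7.34 CPM in naive macrophages. Its edgeR adjusted p was above 0.05 without any one of the 4 libraries compared, while the log2 fold change stayed between 2.80 and 3.54. For TAM-NIC over naive it was 3.26 ± 0.35 (adjusted p = 0.183).

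The receptor and adaptor genes with the next smallest p in TAM-IC over naive were Tnfrsf1b, Traf6 and Myd88. Tnfrsf1b, a tumour necrosis factor receptor, had 1137 and 2370 CPM in TAM-IC, 760 and 571 CPM in TAM-NIC, and 403 and 269 CPM in naive macrophages. The 3 groups did not overlap. The log2 fold change was 2.55 ± 0.52 for TAM-IC over naive (edgeR adjusted p = 0.146) and 1.42 ± 0.50 between the TAM groups (edgeR adjusted p = 0.244). The ubiquitin ligase gene Traf6 had 0.97 ± 0.22 and the Toll-like receptor adaptor gene Myd88 1.19 ± 0.30 for TAM-IC over naive (edgeR adjusted p = 0.172 and 0.198). Card10, a scaffold of the route from G protein-coupled receptors, was low in TAM-NIC, with 24.0 and 26.8 CPM in TAM-IC, 3.31 and 6.25 CPM in TAM-NIC, and 35.5 and 43.8 CPM in naive macrophages. Its log2 fold change was 2.44 ± 0.37 between the TAM groups and -2.92 ± 0.37 for TAM-NIC over naive (edgeR adjusted p = 0.112 and 0.195).

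The other NF-kB targets were a list of 44 genes, of which 43 were tested, with median log2 fold changes of 0.67 for TAM-IC over naive, 2.41 for TAM-NIC over naive and -0.999 between the TAM groups. EdgeR called 0 of them in the 3 comparisons. DESeq2 called 12 higher and 2 lower for TAM-IC over naive, 24 higher and 1 lower for TAM-NIC over naive, and 1 higher and 10 lower between the TAM groups, against 3.07% and 4.85%, 4.43% and 3.75%, and 3.28% and 7.14% of all tested genes. Without replicate 2 of TAM-NIC the list had 44 tested genes and medians of 0.65 for TAM-IC over naive, 0.70 for TAM-NIC over naive and 0.09 between the TAM groups. DESeq2 then called 18 higher and 2 lower for TAM-IC over naive, 14 higher and 5 lower for TAM-NIC over naive, and 8 higher and 3 lower between the TAM groups, against 6.08% and 7.88%, 4.49% and 8.59%, and 4.63% and 3.82% of all tested genes. Replicate 2 of TAM-NIC exceeded replicate 1 at least 2-fold for 26 and at least 4-fold for 21 of the 43, against 22.9% and 11.3% of all tested genes. It was at least 2-fold lower for 7 of the 43, against 12.3% of all tested genes. The chemokine gene Ccl4 had 107 and 55.8 CPM in TAM-IC, 149 and 413 CPM in TAM-NIC, and 8.32 and 5.30 CPM in naive macrophages, with 5.49 ± 0.67 on the log2 scale for TAM-NIC over naive (edgeR adjusted p = 0.183). Gch1, the first enzyme of tetrahydrobiopterin synthesis, had 49.1 and 59.0 CPM in TAM-IC, 28.5 and 43.0 CPM in TAM-NIC, and 12.9 and 13.6 CPM in naive macrophages. Its log2 fold change was 2.19 ± 0.29 for TAM-IC over naive (edgeR adjusted p = 0.0721).

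Some targets went the other way. Vcam1, an adhesion molecule that resident marrow macrophages also carry, had 259.7 and 153 CPM in TAM-IC, 5063 and 5805 CPM in TAM-NIC, and 8636 and 4335 CPM in naive macrophages, a log2 fold change of -4.71 ± 0.63 between the TAM groups (adjusted p = 0.0950 in edgeR). It is also on the macrophage marker list, whose summed level was lowest in TAM-IC. Il1a, which encodes a proinflammatory cytokine, had 3.55 and 2.16 CPM in TAM-IC, 50.5 and 659.5 CPM in TAM-NIC, and 47.5 and 21.01 CPM in naive macrophages. Both libraries of TAM-IC were below the naive pair. Ltb, a lymphotoxin subunit that acts on the noncanonical route, had 55.6 and 73.2 CPM in TAM-IC, 19.1 and 26.2 CPM in TAM-NIC, and 49.7 and 75.2 CPM in naive macrophages, so that TAM-NIC was the group apart, with 1.54 ± 0.33 between the TAM groups (edgeR adjusted p = 0.162).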

How the data were processed

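RNA of 6 macrophage and 2 plasma cell samples was sequenced. Per the labels' protocols a SMART-Seq v4 kit for low RNA input was used, which leaves the strand of a read unknown. The authors deposited read counts per gene as whole numbers, for macrophages under Ensembl identifiers and for plasma cells under symbols. STAR, featureCounts, DESeq2 1.26, mm10 and GRCm38 are named in the submitters' processing notes, with no role. The annotation, the strand setting and the handling of reads with several positions were not given in the sources used here. Coordinates (whole gene, counted from 1) and exon lengths (union of all exons) were taken from GENCODE M21 on GRCm38, which held 47224 of 47643 identifiers. For 14 of the 33 genes it places another gene on the locus, and unstranded counts cannot separate their reads.

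CPM is the count divided by the library total and multiplied by 1000000. One edgeR quasi-likelihood model (4.0.16, R 4.3.3, TMM scaling, default quasi-dispersion) was fitted to the 6 macrophage libraries. The filter filterByExpr with a count of 10 and a total of 15 as minima passed 15522 genes, and 3 residual degrees of freedom remained. All 3 pairs of groups were compared, with Benjamini-Hochberg adjustment over all genes of a comparison and a threshold of 0.05. Standard errors were derived from the fold change and its F statistic. Libraries of 2 groups do not overlap when both of one group lie above or below both of the other in CPM. The fitting script was tested on simulated counts. Other steps used Python 3.11.15 with numpy 2.4.6, pandas 2.3.3 and matplotlib 3.10.9.

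The 33 genes, their roles and the further lists were chosen with earlier results of these data known. CPM is given for every one of the 33 genes. Fold changes with standard errors are given in each comparison for the 5 subunits and the 10 members with the smallest p, and for some of the 4 genes with the smallest p on each further list. Values of other genes come from DESeq2 calls. Alternatives were DESeq2 1.42.0, limma-voom (limma 3.58.1), RLE size factors, no filter, at least 50 counts in 2 libraries, bias-adjusted quasi-dispersions, the mouse number as a block, no immunoglobulin genes, each library left out, and, added after seeing the data, DESeq2 without replicate 2 of TAM-NIC. The labels number TAM samples by mouse. They do not say whether naive samples came from separate animals, so the spread within that group may be technical. No molecular identifiers were used, so reads are not independent molecules, and the limit for a count of 0 covers counting error only. The promoter motif was chosen as the common kappa B consensus.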

Additional observations from a re-analysis of the deposited data

Results flagged for a closer look

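Ikbkb, the gene of a catalytic subunit of IkB kinase, was the single one of the 33 genes for which, in CPM, both libraries of TAM-IC stood above naive macrophages and both libraries of TAM-NIC stood below them. It had 228 and 406 CPM in TAM-IC, 161 and 174 CPM in TAM-NIC, and 176 and 188 CPM in naive macrophages. The difference between the TAM groups, each taken over naive, was 0.95 on the log2 scale, and edgeR's test of that difference gave an adjusted p of 0.261. The order of TAM-NIC and naive macrophages held in CPM, but with TMM-scaled library sizes they overlapped, at 169 and 175 CPM in TAM-NIC and 165 and 175 CPM in naive macrophages, and edgeR's log2 fold change of TAM-NIC over naive was 0.02. The annotation has another gene on the Ikbkb locus.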

How the results depend on the processing

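Calls of single genes depended on the tool and on the filter. For TAM-IC over TAM-NIC, 0 genes and 0 of the 33 NF-kB genes were called, against 1618 genes and 3 members with DESeq2, 1871 and 5 without a filter, 22 genes with bias-adjusted quasi-dispersions, and 0 to 1510 genes and 0 to 5 members with a library left out. For TAM-IC over naive, 34 genes and 0 members were called, against 1229 and 12 with DESeq2, 1437 and 13 without a filter, 0 genes with limma-voom, 22 with RLE size factors, 56 with bias-adjusted quasi-dispersions, 20 without immunoglobulin genes, and 0 to 534 genes and 0 to 6 members with a library left out. For TAM-NIC over naive, 0 genes and 0 members were called, against 1269 and 18 with DESeq2, 1548 and 18 without a filter, and 0 to 477 genes and 0 to 11 members with a library left out. The cause of these differences was not tested. The median log2 fold change of the 33 genes over naive stayed between 0.91 and 1.09 for TAM-IC and between 1.04 and 1.35 for TAM-NIC with a library left out. Among the values given with standard errors, those that changed sign with a library left out were Nfkbid (-2.66 to 0.77) and Rel (-0.90 to 0.43) between the TAM groups without replicate 2 of TAM-NIC, Rela (-0.023 to 0.19) between the TAM groups without replicate 2 of TAM-IC, and Nfkb1 (-0.17 to 0.73) for TAM-NIC over naive without its replicate 1. DESeq2 without replicate 2 of TAM-NIC, chosen after seeing the data, called 1392 genes and 1 member for TAM-IC over TAM-NIC, 2299 and 17 for TAM-IC over naive, and 2154 and 13 for TAM-NIC over naive, where the median of the 33 genes was 1.01. Its values for Nfkbid (0.79) and Rel (0.45) between the TAM groups changed sign. Of 933 alternative values of these genes, 749 kept direction and side of the threshold, 170 passed it, 8 fell below it, all for Traf1, and 6 changed sign.

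With the mouse number as a block, edgeR called 34 genes between the TAM groups (3 up and 31 down in TAM-IC) and 0 members. The deviations of same-numbered libraries correlated at 0.152 in both pairs, a value that is equal by construction with 2 pairs, and Ddx3y shows that the libraries numbered 2 are from different animals, so the numbers are not taken to pair the samples.

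Counts of non-overlapping libraries in other scalings were chosen after seeing the data. TMM-scaled CPM gave 29 members above naive in TAM-IC and 26 in TAM-NIC, against 30.3% and 21.9% of all tested genes. CPM without immunoglobulin counts gave 28 and 22, against 22.8% and 19.2%. In plain CPM these shares were 23% and 16.6%. With 2 libraries per group the spread of a group is poorly known. Depth did not limit the members in the 6 macrophage libraries, where the lowest value was 1.59 CPM, for Bcl2a1b in replicate 2 of naive macrophages. In the plasma cell libraries some members were near the floor, with 5 and 4 counts for Tnip3 and 12 and 5 for Bcl2a1b.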
